A study of Homo sapiens with 8 samples.

Results

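Mitochondrial chaperones and proteases are described here through 10 nuclear genes measured in MCF-10A, a human mammary epithelial cell line that does not form tumours. The genes were picked by name and not by a rule on measured values, though earlier results of these data were known, and all 10 were found among the 60617 genes of the deposited count table and passed the filter on low counts, which kept 17693 genes. Poly(A)-selected RNA was sequenced from 8 libraries in 4 groups of 2. Empty cells and NeuT cells were each left untreated or given 1 µM JG-98, a small-molecule inhibitor of Hsp70 chaperones, for 12 h. The labels do not say what the Empty and NeuT lines carry (NeuT is a name commonly used for an activated form of rat Neu, the counterpart of ERBB2), nor whether either line is a single clone. All groups were grown in the same medium, with serum, epidermal growth factor, hydrocortisone, insulin and cholera toxin, and the labels do not say whether replicates came from separate cultures, so p-values measure only the spread between these libraries. GEO's design text names the drug sensitivity of transformed cells as the question.

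Proteins imported into the mitochondrial matrix are pulled in by mortalin, the mitochondrial Hsp70 encoded by HSPA9, which needs a nucleotide exchange factor such as GRPEL1. They then fold inside the barrel of the chaperonin Hsp60 (HSPD1) closed by its lid Hsp10 (HSPE1), and TRAP1 is the Hsp90 of this compartment. Damaged matrix proteins are degraded by LONP1 and by the ClpXP complex, in which CLPX unfolds substrates for the peptidase CLPP. In the inner membrane, AFG3L2 faces the matrix and YME1L1 the intermembrane space, where HTRA2, a serine protease, is also found. Several of these genes are used as markers of the mitochondrial unfolded protein response, in which unfolded protein in the matrix raises the transcription of its chaperones and proteases.

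Total counts were 55050996 to 56861971 in 7 libraries and 37341458 in treated Empty replicate 1. The line's epithelial markers (EPCAM, CDH1, KRT8, KRT18) summed to 3642 to 4288 CPM (counts relative to the TMM-scaled library size). Leukocyte markers summed to 5.22 to 12.6 CPM, endothelial markers to 8.29 to 15.1 CPM and the luminal receptors ESR1 and PGR to 11.3 to 15.0 CPM. In these bulk samples, fewer cells of a type and less RNA per cell cannot be told apart.

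HSPD1 and HSPE1 lie on opposite strands of chromosome 2 (HSPD1 on the minus strand at 197486584 to 197516737, HSPE1 on the plus strand at 197500140 to 197503449), with the span of HSPE1 inside that of HSPD1. By the start sites given below they lie head to head. Their promoter windows are shown because both genes were lower in NeuT cells. The windows come from RefSeq (GRCh38.p14) and run from 250 bases before to 50 bases after a start site. HSPE1 starts at 197500379, and the HSPD1 start whose window is printed lies 539 bases away at 197499840, on the other strand. A second HSPD1 start, at 197500274, lies 105 bases from that of HSPE1, and its window held no match. A search of both strands covered GAANNTTC, the core of a heat shock element, and TGATGNAA, a form of the element bound by ATF4 with C/EBP partners. Capitals mark the match found.
HSPE1, chr2:197500129-197500428, plus strand: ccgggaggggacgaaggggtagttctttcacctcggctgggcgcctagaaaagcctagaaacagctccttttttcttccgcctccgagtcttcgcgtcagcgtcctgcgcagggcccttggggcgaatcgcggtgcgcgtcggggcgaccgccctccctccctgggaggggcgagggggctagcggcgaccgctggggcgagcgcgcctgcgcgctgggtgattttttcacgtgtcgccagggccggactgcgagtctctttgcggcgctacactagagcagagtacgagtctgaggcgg
HSPD1, chr2:197499791-197500090, minus strand: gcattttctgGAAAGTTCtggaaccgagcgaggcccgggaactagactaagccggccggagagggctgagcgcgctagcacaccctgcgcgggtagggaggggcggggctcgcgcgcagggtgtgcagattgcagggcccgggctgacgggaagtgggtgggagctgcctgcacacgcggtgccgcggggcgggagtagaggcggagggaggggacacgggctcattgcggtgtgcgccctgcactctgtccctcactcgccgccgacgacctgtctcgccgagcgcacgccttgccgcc

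The HSPD1 window holds GAAAGTTC, a match to GAANNTTC, starting 240 bases before the start site. The match lies between this start and that of HSPE1, in bases that the HSPE1 window does not reach. It was the only match to either motif in the 10 windows found for 7 of the 10 genes (HSPD1, HSPE1, LONP1, CLPX, TRAP1, AFG3L2 and HTRA2). CLPP, YME1L1 and GRPEL1 had no window in the table. Of all 35116 promoter windows, 6.77% held GAANNTTC and 3.62% held TGATGNAA. A match is a description of the sequence and not a measured binding site.

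Levels among the 10 genes were compared per length, as RPKM (TMM-scaled CPM per kilobase of exon in the table). In untreated Empty cells HSPD1 stood at 220.1 ± 0.86 RPKM (SD, n = 2), followed by CLPP (48.1 ± 2.3), TRAP1 (34.4 ± 0.20), YME1L1 (31.4 ± 0.49), GRPEL1 (27.5 ± 0.27), LONP1 (24.3 ± 0.53), HSPE1 (15.5 ± 1.8), AFG3L2 (13.1 ± 0.13), CLPX (8.91 ± 0.15) and HTRA2 (4.93 ± 0.20), all in RPKM with n = 2. The libraries of neighbours in this order did not overlap. By mean RPKM over the 8 libraries HSPD1 lay at percentile 98.8 and HTRA2 at percentile 63.1 of tested genes. The order was the same in treated Empty cells. In both NeuT groups TRAP1 dropped from the third to the fifth place, below YME1L1 and GRPEL1, and in treated NeuT cells HSPE1 (10.4 and 8.60 RPKM) and AFG3L2 (9.45 and 9.47 RPKM) overlapped.

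Several of these levels depend on how reads were assigned. HSPE1 had 847 to 1744 counts per library while HSPD1 had 27329 to 51662, a ratio of 27.3 to 35.0. Of the 950 bases of the main HSPE1 transcript in GENCODE 29, 49.3% lie in exons of HSPD1 or of the readthrough gene HSPE1-MOB4, which had 0 counts in every library, and 26 pseudogenes named after HSPE1 together held 41.6 to 56.8% as many counts as the gene itself. For HSPD1 the 18 pseudogenes held 3.08 to 4.42%. Exons of other genes cover 39.2% of the main transcript of HTRA2 (AUP1 and LOXL3), 37.7% of that of TRAP1 (DNASE1) and 23.2% of that of AFG3L2 (TUBB6), and at most 5.00% of those of the other 6. The use of strand and of reads with several matches is not given in the sources used here, so the levels of HSPE1, HTRA2, TRAP1 and AFG3L2 are uncertain.

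**Figure D1:**
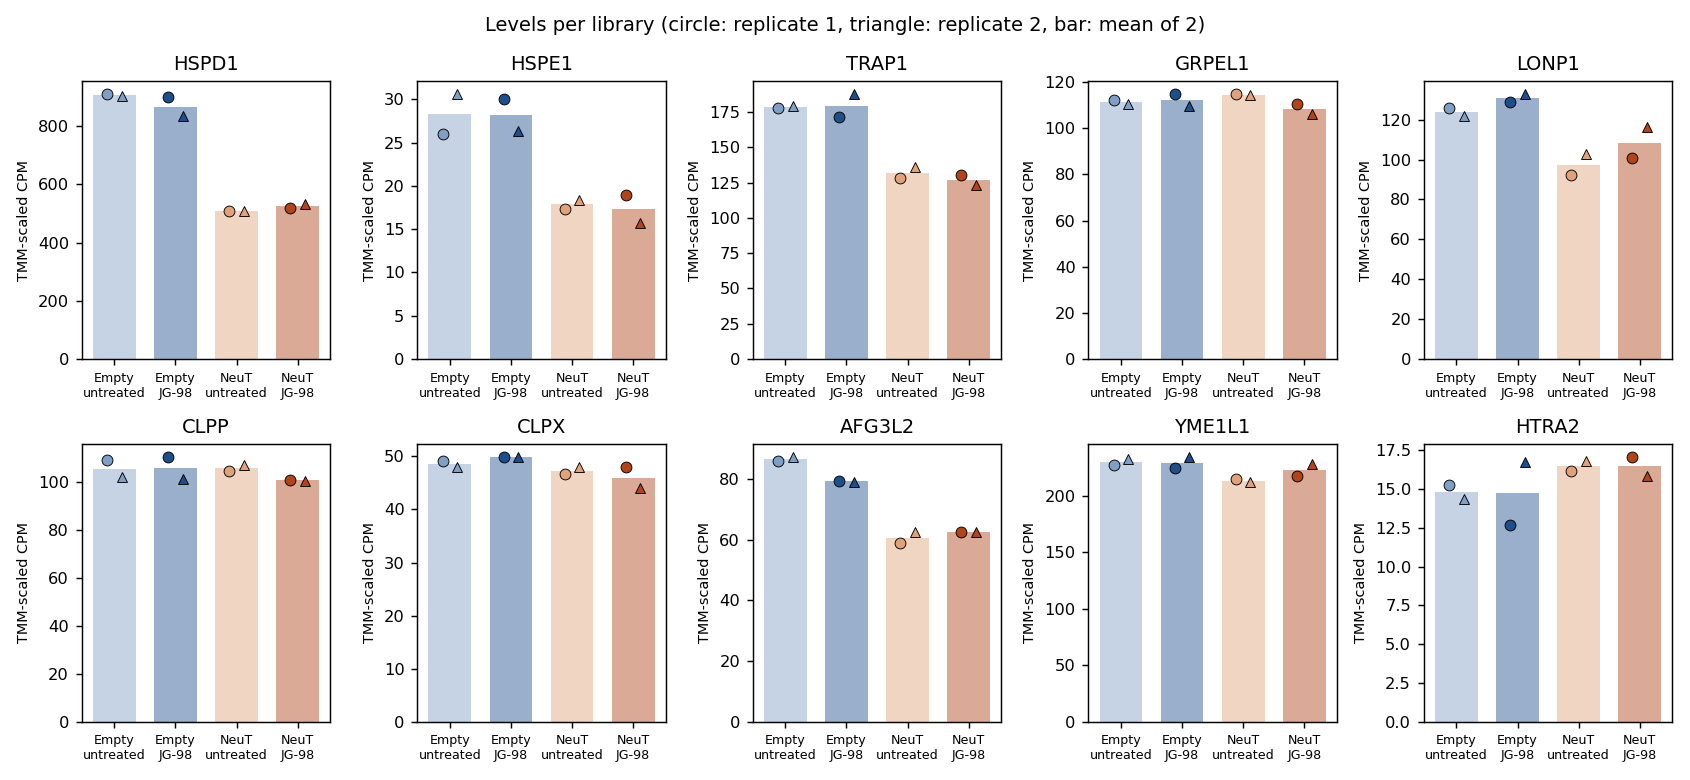
TMM-scaled CPM (vertical axes, each starting at 0) of the 10 genes in the 4 groups; points are libraries and bars are means of 2. HSPD1, HSPE1, TRAP1, LONP1 and AFG3L2 are lower in all 4 NeuT libraries than in all 4 Empty libraries. The share of all tested genes split this way was not computed. Of all tested genes 20.8% were called lower in NeuT untreated and 20.0% under JG-98. No gene has both treated libraries beyond the untreated ones in the same direction in both lines.

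The first comparison asked what JG-98 did to these genes. None of the 10 passed the test in either line. edgeR called 0 of 10 in Empty cells, against 0.339% of all tested genes (0.26% higher, 0.0791% lower), and 0 of 10 in NeuT cells, against 3.01% (2.01% higher, 1.01% lower). At an unadjusted p under 0.05 edgeR had 1 gene in each line (AFG3L2 in Empty, LONP1 in NeuT), against 9.83% and 16.0% of tested genes. DESeq2 had 0 in both lines, and limma-voom had AFG3L2 in Empty and 0 in NeuT, with 0 calls after adjustment by either tool. Averaged over the lines, with 4 libraries on each side, the count was again 0 of 10, against 3.97% of tested genes (2.39% higher, 1.58% lower), with LONP1 alone under an unadjusted p of 0.05 by all 3 tools, against 17% of tested genes by edgeR, 14.3% by DESeq2 and 16.8% by limma-voom. Median log2 fold changes of the 10 genes were 0.00174 in Empty and -0.02 in NeuT, beside -0.00334 and 0.000213 over all tested genes.

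The chaperonin pair stayed close to its untreated level. HSPD1 was at 910.0 and 905.0 CPM in untreated Empty libraries and at 899.7 and 834.0 CPM after JG-98. In NeuT it was at 507.4 and 507.2 CPM without the drug and at 518.0 and 531.4 CPM with it. Treated libraries were thus just below the untreated ones in Empty and just above them in NeuT, and the log2 fold change was -0.07 in Empty (SE 0.052; edgeR adjusted p-value 0.735) and 0.05 in NeuT (SE 0.052; 0.722). The 95% intervals ran from -0.18 to 0.04 and from -0.06 to 0.16. HSPE1, its lid, was at 26.0 and 30.6 CPM untreated and at 30.1 and 26.3 CPM treated in Empty, and at 17.4 and 18.3 CPM against 18.9 and 15.7 CPM in NeuT. Its groups overlapped in both lines.

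The other chaperone genes gave similar values. TRAP1 had 177.6 and 179.1 CPM without and 171.2 and 187.5 CPM with JG-98 in Empty, and 128.3 and 135.7 CPM against 130.5 and 123.0 CPM in NeuT, so that treated and untreated libraries overlapped in each line. GRPEL1 (chromosome 4, 7058895 to 7068064), the exchange factor of mortalin, had 112.2 and 110.6 CPM without and 114.7 and 109.5 CPM with the drug in Empty, and 114.8 and 114.4 against 110.3 and 106.0 CPM in NeuT. Only the NeuT groups did not overlap, and neither log2 fold change passed (0.01 and -0.08, SE 0.055 each; edgeR adjusted p-values 0.976 and 0.514).

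Among the proteases, LONP1 (chromosome 19, 5691834 to 5720572) had the highest fold change with the drug in both lines. It went from 125.6 and 121.9 to 128.7 and 132.7 CPM in Empty, where the groups did not overlap, and from 92.3 and 102.6 to 100.7 and 116.3 CPM in NeuT, where they did. The log2 fold change was 0.08 in Empty (SE 0.070; edgeR adjusted p-value 0.773), 0.16 in NeuT (SE 0.070; 0.290) and 0.12 averaged over the lines (SE 0.050; 0.233). The NeuT value rested on single libraries. Without treated NeuT replicate 1 it was 0.25 and passed (edgeR adjusted p-value 0.00695), as did the average of 0.17 (0.00562). In NeuT it was 0.04 without treated replicate 2, 0.08 without untreated replicate 1 and 0.23 without untreated replicate 2, and did not pass, with adjusted p-values up to 0.887. Treated NeuT replicate 2 also had more ATF4, at 310.5 CPM against 248.6 CPM in replicate 1, and the part of this in the LONP1 value was not tested.

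AFG3L2 (chromosome 18, 12328944 to 12377314) was at 86.1 and 87.3 CPM in untreated and 79.6 and 79.2 CPM in treated Empty libraries, and at 58.9 and 62.58 CPM against 62.62 and 62.73 CPM in NeuT. The groups did not overlap in either line, the treated values being lower in Empty and higher in NeuT, and log2 fold changes of -0.13 (SE 0.058) and 0.05 (SE 0.059) did not pass (edgeR adjusted p-values 0.483 and 0.781). Across the 10 genes the treated and untreated libraries did not overlap for 4 in Empty and 5 in NeuT, against 43.1% and 44.8% of all tested genes, and for 0 of 10 when both lines were put together, against 3.16%. The remaining proteases CLPP (chromosome 19, 6361531 to 6368906), CLPX (chromosome 15, 65148219 to 65185342), YME1L1 (chromosome 10, 27110112 to 27155266) and HTRA2 (chromosome 2, 74529377 to 74533348) had log2 fold changes between -0.07 and 0.06. Over all 10 genes the 95% intervals stayed within -0.25 and 0.24 in Empty and within -0.27 and 0.30 in NeuT, the latter a fold of 0.829 to 1.23, and the bounds widest from 0 belonged to AFG3L2 and HTRA2 in Empty and to HSPE1 and LONP1 in NeuT.

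The authors' deposited tables gave none of the 10 genes an adjusted p-value under 0.05. The lowest there were 0.544 for AFG3L2 in Empty and 0.313 for LONP1 in NeuT. The interaction of line and drug was called for 0 of 10 genes by edgeR, DESeq2 and limma-voom, against 0.00565% of tested genes by edgeR. No gene had an unadjusted p under 0.05 with edgeR or DESeq2, against 7.79% and 5.76% of tested genes, and AFG3L2 alone had one with limma-voom, against 7.74%. Its interaction of 0.17 (SE 0.083) had the lowest edgeR adjusted p-value, 0.644.

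**Figure D2:**
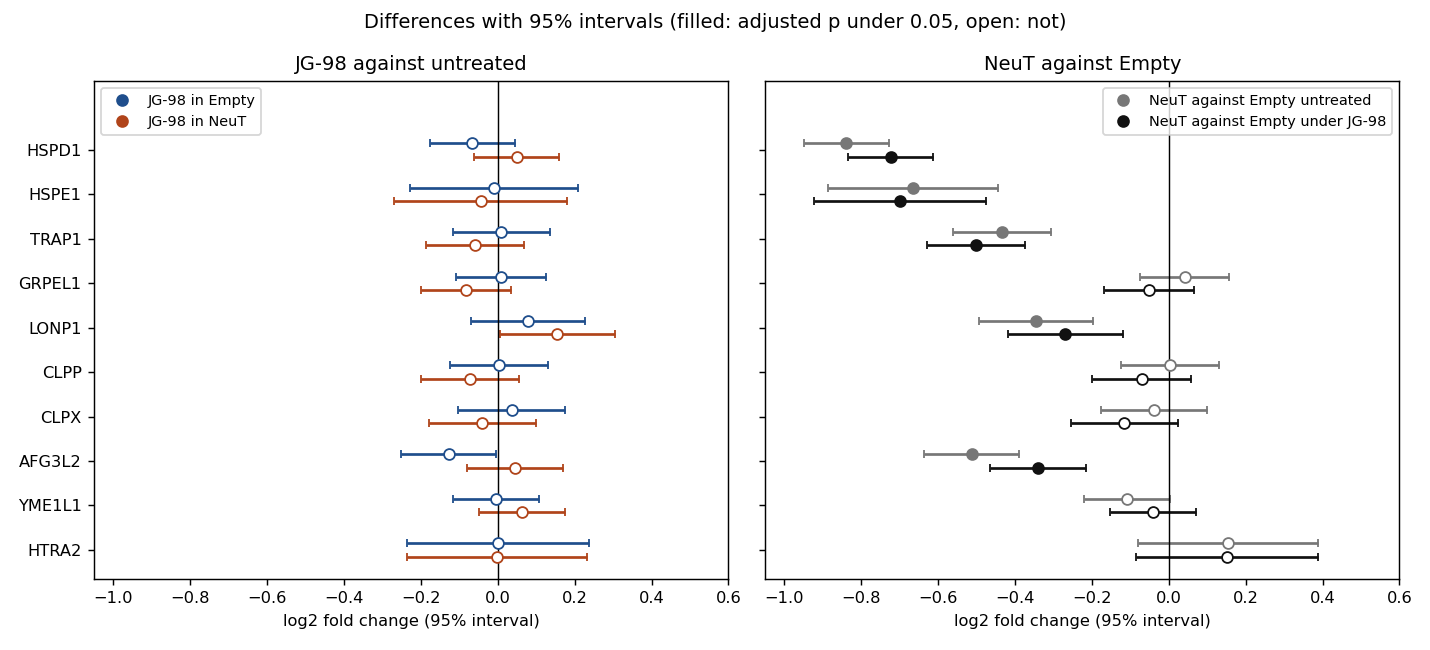
Log2 fold changes of the 10 genes with 95% intervals (horizontal axes), with JG-98 on the left and between lines on the right; filled points passed an edgeR adjusted p-value of 0.05. All 20 points on the left are open, and on the right the same 5 genes are filled without and with the drug.

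The second comparison set NeuT against Empty cells. Without treatment 5 of the 10 genes were lower in NeuT and 0 were higher: HSPD1, HSPE1, AFG3L2, TRAP1 and LONP1. Of all tested genes 42.0% were called in this comparison, 21.2% as higher and 20.8% as lower. In either direction 5 of 10 is close to that background. Whether 5 lower and 0 higher differs from the shares by direction was not tested. Under JG-98 the same 5 genes were lower and 0 higher, against 41.7% called, 21.7% as higher and 20.0% as lower. With total counts in place of TMM the higher share of calls was 40.7% in place of 50.5% untreated, and 41.0% in place of 52.0% under JG-98. These comparisons share no library, but they set the same lines against each other and use the same estimate of the spread from all 8 libraries. They are thus not independent. By edgeR, DESeq2 and limma-voom 5 genes were called in both. Without treatment the NeuT and Empty libraries did not overlap for 9 of the 10 genes, against 73.2% of tested genes, and under JG-98 for 7, against 67.6%. The median log2 difference of the 10 genes was -0.23 untreated and -0.19 under the drug, beside -0.02 and -0.00111 over all tested genes.

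HSPD1 differed most. Its 4 Empty libraries lay between 834.0 and 910.0 CPM and its 4 NeuT libraries between 507.2 and 531.4 CPM. The log2 difference was -0.84 (SE 0.053; edgeR adjusted p-value 1.2e-09) untreated, a fold of 0.559, and -0.72 (SE 0.052; 7.1e-09) under JG-98. HSPE1, whose promoter window is printed above beside that of HSPD1, ran from 26.0 to 30.6 CPM in Empty and from 15.7 to 18.9 CPM in NeuT, with log2 differences of -0.66 (SE 0.10; edgeR adjusted p-value 7.0e-05) and -0.70 (SE 0.11; 4.55e-05). With the counts of their pseudogenes added, an alternative chosen after seeing the data, the untreated differences were -0.82 for HSPD1 and -0.61 for HSPE1, and both passed. TRAP1 (chromosome 16, 3651639 to 3717553) was lower by log2 differences of -0.43 (SE 0.060; edgeR adjusted p-value 1.6e-05) and -0.50 (SE 0.060; 3.2e-06), with no overlap between lines.

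The lower proteases were AFG3L2 and LONP1. AFG3L2 went from 86.7 ± 0.88 CPM in untreated Empty to 60.7 ± 2.6 CPM in untreated NeuT (SD, n = 2 each), lower by a log2 difference of -0.51 (SE 0.059; adjusted p-value by edgeR 1.9e-06), and its difference under JG-98 was -0.34 (SE 0.059; 0.000161). LONP1 had 123.8 ± 2.7 and 97.4 ± 7.3 CPM (SD, n = 2 each), log2 differences of -0.35 (SE 0.070; edgeR adjusted p-value 0.000756) and -0.27 (SE 0.070; 0.00523), and stayed under the threshold in every alternative, up to 0.0414 and 0.0488. LONP1 under JG-98 moved to -0.16 without treated NeuT replicate 1.

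The other 5 genes did not pass. GRPEL1, CLPP, CLPX, YME1L1 and HTRA2 had untreated log2 differences from -0.11 to 0.15, none of which passed (lowest edgeR adjusted p-value 0.108), and their 95% intervals lay within -0.22 and 0.39. YME1L1, at 227.6 and 232.7 CPM in Empty and 214.7 and 211.9 CPM in NeuT, was the nearest to a call (log2 difference -0.11, SE 0.053), and passed when only the 4 libraries compared were fitted (adjusted p-value 0.0139) and with total counts (-0.18; 0.0112). CLPX passed under JG-98 with total counts (-0.19; 0.0311). HTRA2 passed as higher under JG-98 without treated Empty replicate 2 (0.38; 0.0222), in which it had 16.7 CPM, against 12.7 CPM in replicate 1. Thus LONP1 was called and both subunits of ClpXP were not, and AFG3L2 was called and YME1L1 was not. The differences between those pairs of genes were not tested.

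Across the 8 libraries, Pearson's r between log2 CPM of the 5 called genes ran from 0.747 (HSPE1 with LONP1) to 0.981 (HSPD1 with AFG3L2) over 10 pairs. These values describe libraries that fall into 2 lines, and they carry no test. By the same measure, among 13115 genes with a symbol and a mean of at least 50 counts, the genes most like HSPD1 were DDX21, CTNNAL1, CENPE, SNAI1 and NAA50 (r from 0.997 to 0.999). Those most like LONP1 were ME3, SLC44A2, INO80, MYO1D and DENND1B (r from 0.977 to 0.987).

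Marker lists of other cell types also moved with the line. The fibroblast list (PDGFRA, PDGFRB, DCN, LUM) summed to 3.03 to 4.07 CPM in the Empty libraries and 63.3 to 78.0 CPM in the NeuT libraries. DCN alone was at 62.4 to 77.5 CPM in NeuT, while LUM and PDGFRA were at or under 3 counts in every library. Leukocyte markers summed to 5.22 to 7.15 CPM in Empty and 11.04 to 12.6 CPM in NeuT, mostly CD14, with CD3E at or under 3 counts in every library. Epithelial markers summed to 3642 to 3852 CPM in Empty and 4085 to 4288 CPM in NeuT, while EPCAM alone was at 196.4 to 223.1 CPM in Empty and 93.5 to 100.7 CPM in NeuT. Sums of endothelial markers (10.6 to 15.1 against 8.29 to 9.94 CPM) and luminal receptors (13.6 to 15.0 against 11.3 to 12.8 CPM) were lower in the NeuT libraries. The endothelial sum was mostly PECAM1, with CDH5 and VWF at no more than 34 and 18 counts in any library. Of these 3 genes 2 had higher values in NeuT in both comparisons, with 1 called higher and 1 lower. The part of these differences in the lower chaperone and protease genes was not tested.

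The same comparisons were made for the other genes of the pathway, in lists chosen by function. Of the mortalin system and import motor, 7 of 9 genes were tested. DNAJA3 and PAM16 had at most 5 and 10 counts per library and were not tested. Of the main PAM16 transcript 75.5% lies in exons of the readthrough gene CORO7-PAM16, itself at 0 counts, while the main DNAJA3 transcript has no such overlap, and neither gene is read as unexpressed. GRPEL2, a second exchange factor for mortalin, rose with JG-98. It was at 39.4 and 39.9 CPM untreated and 47.0 and 45.2 CPM treated in Empty, and at 35.4 and 35.4 CPM against 42.3 and 52.3 CPM in NeuT, with no overlap in either line. Its log2 fold change averaged over the lines was 0.32 (SE 0.059; edgeR adjusted p-value 0.00496). It was the 1 of 7 tested genes on this list to pass there, against 3.97% of all tested genes. Within lines GRPEL2 passed in NeuT and not in Empty by edgeR, DESeq2 and limma-voom. Groups did not overlap for 43.1% of all tested genes in Empty and 44.8% in NeuT. HSPA9 was at 810.2 and 806.4 CPM untreated and 808.8 and 785.2 CPM treated in Empty, where the groups overlapped, and at 586.5 and 586.9 against 640.5 and 647.9 CPM in NeuT, where they did not. Its log2 fold changes of -0.02 and 0.13 did not pass (SE 0.049 each; edgeR adjusted p-values 0.941 and 0.173, in NeuT from 0.0540 to 0.599 over the alternatives), nor did their average of 0.06 (0.436). It was lower in NeuT by log2 differences of -0.46 (SE 0.049; edgeR adjusted p-value 8.0e-07) untreated and -0.31 (SE 0.049; 7.0e-05) under JG-98. TIMM44, the anchor of mortalin at the import channel, was lower as well (-0.43 and -0.38), and DNAJC15, a J-protein of the import motor, was higher (0.33 and 0.32). Under JG-98 HSCB (0.47) was also higher and DNAJC19 (-0.24) lower. Of the 7 tested genes 2 were called lower and 1 higher untreated, against 20.8% and 21.2% of all tested genes. Under JG-98 the calls were 3 lower and 2 higher, against 20.0% and 21.7%.

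Of the other mitochondrial proteases and peptidases, 12 of 13 genes were tested, and 0 passed with JG-98 averaged over the lines by edgeR or limma-voom, against 3.97% of all tested genes by edgeR (4 and 3 at an unadjusted p under 0.05, against 17% and 16.8%), with a median log2 fold change of -0.03. DESeq2 called 1, XPNPEP3, a gene named here after its value was seen (edgeR log2 fold change -0.19). Between untreated lines 7 of the 12 were lower and 2 higher in NeuT, against 20.8% and 21.2% of all tested genes, and 6 and 2 of them were called in the same direction under JG-98, against 20.0% and 21.7%. OMA1, the stress-activated protease that cleaves OPA1 and DELE1, was at 12.5 to 13.8 CPM in Empty and 6.63 to 8.23 CPM in NeuT, with log2 differences of -0.95 (SE 0.11; edgeR adjusted p-value 2.1e-06) and -0.83 (SE 0.11; 8.2e-06). MIPEP (-0.58 and -0.64), which trims presequences, and IMMP1L (-0.54 and -0.67), a subunit of the inner membrane peptidase, were lower, and LACTB (0.38 and 0.26) and SPG7 (0.22 and 0.18) were higher. SPG7 is the partner of AFG3L2 in the matrix-facing protease, and AFG3L2 itself was lower. The 7 lower calls fell to 4 without untreated Empty replicate 1, 5 without replicate 2, 3 without untreated NeuT replicate 1 and 4 without replicate 2.

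Protease scaffolds, adaptors and substrates included HAX1, which binds the disaggregase CLPB and HTRA2. HAX1 rose with JG-98 from 84.5 and 83.2 to 101.0 and 92.5 CPM in Empty and from 69.9 and 67.5 to 80.7 and 84.5 CPM in NeuT, without overlap. By edgeR, DESeq2 and limma-voom it passed in NeuT and not in Empty. Averaged over the lines it rose by 0.24 (SE 0.043; edgeR adjusted p-value 0.0044). It was the 1 gene of 8 on this list to pass, against 3.97% of all tested genes (2.39% higher), and without untreated NeuT replicate 2 it did not (0.22; 0.0588). Between untreated lines 5 of the 8 were lower in NeuT, against 20.8% of all tested genes, and 0 higher, among them MAIP1, which interacts with AFG3L2 (-0.40), STOML2, a scaffold for YME1L1 (-0.39), and OPA1, the fusion protein cleaved by OMA1 and YME1L1 (-0.36). Under JG-98 those 5 and CLPB were lower, against 20.0% of all tested genes, with STOML2 (-0.48), MAIP1 (-0.45) and PHB2 (-0.36) the largest differences. DELE1, which relays mitochondrial stress to the kinase HRI, was higher in NeuT under JG-98 (0.30; edgeR adjusted p-value 0.00101) and did not pass untreated (0.15; 0.0714) unless only the 4 libraries compared were fitted (0.16; 0.0103) or either treated NeuT library was left out (0.17 and 0.16; 0.0199 and 0.0201). Its interaction was not called (0.711).

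Of 9 import channel genes 0 passed with JG-98 averaged over the lines by edgeR or limma-voom, against 3.97% of all tested genes by edgeR (1 at an unadjusted p under 0.05, against 17% and 16.8%). All 9 averages were negative, with a median of -0.05. In Empty alone 4 of the values were positive and 5 negative, and in NeuT alone all 9 were negative. DESeq2 called TOMM40 (-0.13; adjusted p-value 0.0486), and without treated NeuT replicate 1 edgeR called TOMM40 (-0.16; 0.00171) and TOMM22 (-0.17; 0.00754). With no filter on low counts edgeR also called TOMM40 averaged over the lines (-0.13; adjusted p-value 0.0485) and in NeuT (-0.20; 0.0290). DESeq2 called it in NeuT as well (-0.20; adjusted p-value 0.0244). Between untreated lines 5 were lower in NeuT, against 20.8% of all tested genes, and 0 higher, led by TIMM21 (-0.38), TOMM70 (-0.26) and TIMM17A (-0.24). This count fell to 2 without untreated Empty replicate 1, 2 without untreated NeuT replicate 1 and 3 without untreated NeuT replicate 2. Under JG-98 6 were lower, against 20.0% of all tested genes, and 4 without treated Empty replicate 1, led by TOMM40 (-0.38), TIMM21 (-0.35) and TOMM22 (-0.35). TRiC, the cytosolic chaperonin, served as a comparison outside the organelle. Averaged over the lines, 0 of its 8 subunit genes passed with JG-98 by any of the 3 tools, against 3.97% of all tested genes by edgeR (1 at an unadjusted p under 0.05 by each, against 17% by edgeR, 14.3% by DESeq2 and 16.8% by limma-voom), and CCT2 passed without treated NeuT replicate 1 (-0.12; edgeR adjusted p-value 0.0132). Between lines 6 of 8 were lower in NeuT in both comparisons, against 20.8% and 20.0% of all tested genes, with the largest differences for TCP1 (-0.48 and -0.46), CCT5 (-0.36 and -0.35) and CCT2 (-0.29 and -0.40).

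Among 9 genes of stress signalling, 2 rose and 1 fell with JG-98 averaged over the lines, against 2.39% and 1.58% of all tested genes. ATF4, a transcription factor of the integrated stress response, rose in both lines (log2 fold changes 0.51 and 1.34), as did DDIT3, which encodes CHOP (1.33 and 2.60), with edgeR adjusted p-values from 1.6e-07 to 0.0157. In Empty, the ATF4 call was lost without any 1 of the 4 Empty libraries (0.46 to 0.55; adjusted p-values 0.0773 to 0.372), and the DDIT3 call without treated replicate 1 (1.30; 0.0526). ATF5, a factor linked to the mitochondrial unfolded protein response, fell. Within lines it passed in NeuT and not in Empty by edgeR, DESeq2 and limma-voom. It was at 60.6 and 61.5 CPM untreated and 57.3 and 50.7 CPM treated in Empty, and at 49.4 and 46.4 CPM against 39.0 and 39.0 CPM in NeuT, an average log2 fold change of -0.24 (SE 0.049; edgeR adjusted p-value 0.0105). The call for ATF5 was lost without either untreated Empty library, treated Empty replicate 2 or untreated NeuT replicate 1, with values from -0.24 to -0.19 and adjusted p-values from 0.0547 to 0.0945. HSF1, EIF2AK1 and DELE1 did not pass with the drug (edgeR adjusted p-values 0.403 to 0.700 averaged over the lines). CEBPB did not pass with edgeR (0.15; 0.0774) and did with DESeq2 (0.15; adjusted p-value 0.0498), with no filter (0.0198) and without treated NeuT replicate 1 (0.18; 0.00273).

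Between untreated lines ATF4 (-1.14), NRF1, a factor for nuclear genes of mitochondria (-0.91), ATF5 (-0.35) and EIF2AK1 (-0.16) were lower in NeuT, and CEBPB (0.29) and HSF1 (0.26) were higher. These are 4 lower and 2 higher of 9 genes, against 20.8% and 21.2% of all tested genes. Under JG-98 NRF1 (-0.89), ATF5 (-0.47), ATF4 (-0.30) and EIF2AK1 (-0.25) were lower, and DDIT3 (1.59), CEBPB (0.32) and HSF1 (0.19) were higher, with edgeR adjusted p-values up to 0.0169. With DELE1, given above, 4 of the 9 were called lower and 4 higher, against 20.0% and 21.7% of all tested genes. The ATF4 difference under JG-98 did not pass without treated Empty replicate 1 (-0.26; 0.0845). It was -0.14 without treated NeuT replicate 1 and -0.47 without treated NeuT replicate 2, and passed in both.

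Several of these calls between lines were lost when 1 library was left out. Untreated, SPG7 (0.0501), PHB2 (0.0899), TOMM40 (0.0579), TIMM17A (0.0891), IMMP1L (0.172) and EIF2AK1 (0.157) did not pass without Empty replicate 1, CEBPB (0.0517), HSF1 (0.0583) and EIF2AK1 (0.134) without Empty replicate 2, PHB2 (0.167), TOMM40 (0.0552), TIMM17A (0.129), IMMP1L (0.192) and EIF2AK1 (0.0837) without NeuT replicate 1, and TOMM70 (0.101) and EIF2AK1 (0.343) without NeuT replicate 2 (edgeR adjusted p-values). Under JG-98 DNAJC15 (0.0610), SPG7 (0.0728), HAX1 (0.0880), IMMP1L (0.0551), DNAJC19 (0.0699) and TOMM22 (0.0913) did not pass without Empty replicate 1, HSCB (0.213), DNAJC19 (0.134), LACTB (0.261) and HSF1 (0.128) without Empty replicate 2, HSCB (0.176), DNAJC15 (0.0547) and IMMP1L (0.0551) without NeuT replicate 1, and DNAJC19 (0.157), LACTB (0.0577) and HSF1 (0.0726) without NeuT replicate 2. Among the log2 differences that shrank in these fits were TOMM70 (to -0.17) and EIF2AK1 (to -0.10) without untreated NeuT replicate 2. So did LACTB (to 0.17) and HSCB (to 0.33) without treated Empty replicate 2, and DNAJC15 (to 0.16) and IMMP1L (to -0.48) without treated NeuT replicate 1. TOMM22 under JG-98 was at -0.52 without treated NeuT replicate 1 and -0.18 without treated NeuT replicate 2, and passed in both. The call for EIF2AK1 untreated was lost without any 1 of the 4 libraries, at -0.15 and -0.16 without the Empty libraries and -0.18 without NeuT replicate 1. With total counts HSCB (0.0560), SPG7 (0.166), LACTB (0.112) and HSF1 (0.123) did not pass under JG-98 either. Nor did HSCB (0.0533), DNAJC19 (0.0777), SPG7 (0.0769), LACTB (0.0567) and HSF1 (0.0711) when only the 4 libraries compared were fitted. With no filter on low counts DNAJC19 under JG-98 (0.0535) and EIF2AK1 untreated (0.0516) did not pass. Calls were gained untreated with only the 4 libraries compared, for GRPEL2 (-0.16; 0.0180), DNAJC19 (-0.19; 0.0475) and TOMM22 (-0.14; 0.00729), and GRPEL2 and TOMM22 also passed without either treated NeuT library. With total counts GRPEL2 (-0.23; 0.0292) and DNAJC19 (-0.26; 0.0216) passed untreated, and GRPEL2 passed under JG-98 without treated NeuT replicate 1 (0.19; 0.0348). HSPA9, OMA1, MIPEP, TIMM44, STOML2, MAIP1, OPA1, TIMM21, TCP1, CCT2, CCT5 and NRF1 passed in both comparisons under every alternative run.

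**Figure D3:**
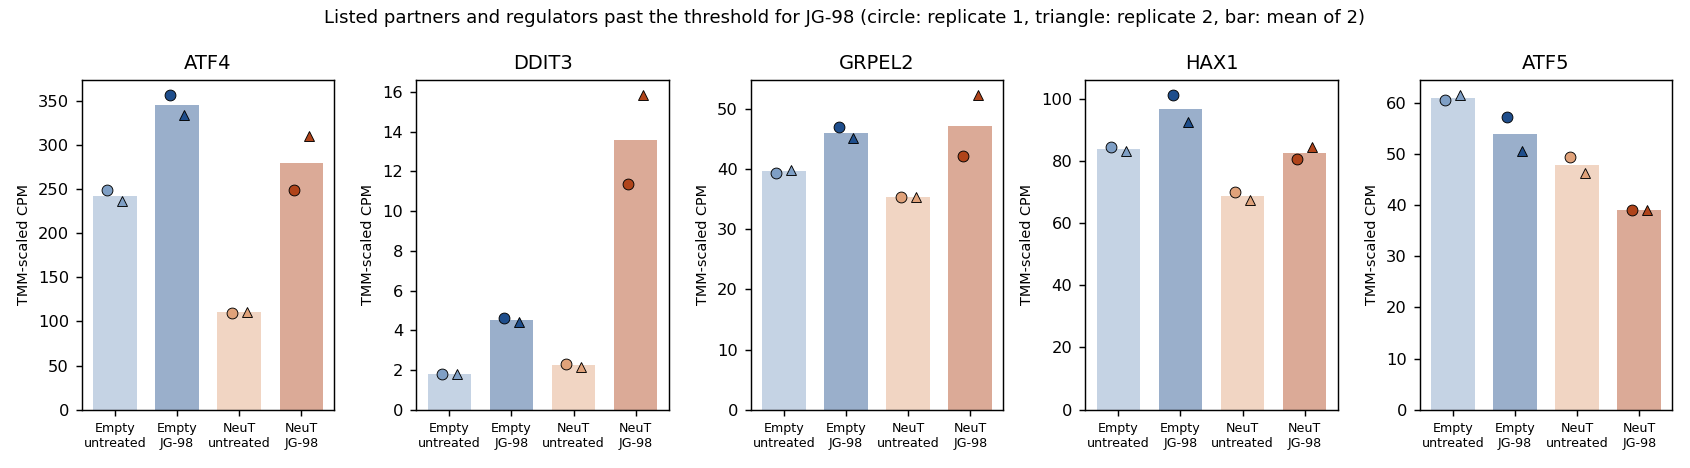
TMM-scaled CPM (vertical axes, each starting at 0) of the 5 listed genes that passed for JG-98; points are libraries and bars are means of 2. ATF4, DDIT3, GRPEL2 and HAX1 are higher and ATF5 is lower in both treated libraries of each line. GRPEL2, HAX1 and ATF5 passed in NeuT and averaged over the lines, and did not pass in Empty.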

How the data were processed

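Gene expression was measured by RNA sequencing in 8 libraries, grouped by their titles. Per the submitters' processing notes, tools included Trim Galore 0.5.0, FastQC 0.11.7, HISAT2 2.1.0, SAMtools 1.9, featureCounts 1.6.3 and limma, with the build hg38 (GRCh38). The annotation release is not given in the sources used here. The authors deposited raw counts per gene, per the file headers, and 1 table per line with columns for log2 fold change, mean log2 level, moderated t and B (each a score), and raw and adjusted p-value. Columns matched to no sample numbered 0. Gene symbols were matched for 60261 of 60617 identifiers.

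Counts were analysed with edgeR 4.0.16 in R 4.3.3 (filterByExpr with a minimum count of 10, TMM scaling, robust quasi-likelihood fit of 4 group means to all 8 libraries). Adjustment for multiple testing followed Benjamini-Hochberg across the 17693 genes, and a gene was called at an adjusted p-value under 0.05. Standard errors are the size of the change over the square root of F. With 2 libraries a group, an exact test of a single gene cannot reach 0.05. Scripts were tested on simulated data. The members and lists were chosen with earlier results of these data known. All 10 members, 10 partners (HSPA9, DNAJA3, GRPEL2, OMA1, DELE1, EIF2AK1, ATF4, ATF5, DDIT3, HSF1) and, per other list and comparison, up to 3 called genes in each direction were named. Alternatives covered scaling, filters, DESeq2 1.42.0, limma-voom 3.58.1, robust estimation, a replicate block, fewer libraries and each library left out. Replicates differed by more than counting noise, with a chi-square per gene of 4.28 to 19.9. Planned protein sequence features were not used here, and 1 marker list is not reported here.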

Additional observations from a re-analysis of the deposited data

How the results depend on the processing

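Of 1060 member values under the alternatives, 0 changed sign while called, 0 lost a call and 6 gained one, all given above for YME1L1, CLPX, HTRA2 and LONP1. The counts of members called were 0 with JG-98 in Empty and 0 for the interaction under every alternative run. With each library left out, they ranged from 0 to 1 with JG-98 in NeuT, from 0 to 1 averaged over the lines, and from 5 to 6 between lines under JG-98, and stayed at 5 between untreated lines. The other alternatives gave 0 for the drug and 5 to 6 between lines. Total counts in place of TMM moved the share of calls higher in NeuT from 50.5% to 40.7% untreated and from 52.0% to 41.0% under JG-98, with a median shift of all genes of -0.07 and -0.08. Of 3392 values of 32 partner genes, 69 lost a call, 47 gained one and 0 changed sign while called. GRPEL2, HAX1 and ATF5 with JG-98 in NeuT did not pass when only the 4 libraries compared were fitted (adjusted p-values 0.0818, 0.0945 and 0.0993). With a library left out these calls were also lost, for GRPEL2 without either untreated NeuT library or treated NeuT replicate 2 (0.25 to 0.42; up to 0.166), for HAX1 without any untreated library or treated NeuT replicate 2 (0.22 to 0.29; up to 0.346), and for ATF5 without any untreated library (-0.35 to -0.25; up to 0.301). The ATF4 interaction of 0.83 was not called (0.0579) and passed with DESeq2, total counts, no filter, no robust estimation and without either treated NeuT library (0.65 to 0.98), and that of DDIT3 (1.27) passed with DESeq2, no filter and without treated NeuT replicate 1. With a replicate block the counts were 0, 0, 0, 0, 5 and 5, as without it. The labels state nothing that replicates of the same number share. Differences between replicates correlated between groups with r from -0.10 to 0.24, the highest between the treated groups, and the samples were not treated as paired. The lowest count of the 10 genes in any library was 483, for HTRA2, and with 2 libraries a group the spread itself is poorly known.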
